A study of Mus musculus with 8 samples.

Results

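The nuclei labelled CB, for ciliary body, were described here from a single nucleus RNA-seq (snRNAseq) series on the mouse iris. Members were chosen by the deposited cell type CB, and they numbered 1291 of 34357 nuclei, or 3.76%, with 4323229 unique molecular identifiers (UMIs). All mice were wild type (WT), female and albino, and 6 to 8 weeks old. Irises were pooled, 5 or 6 irises to a library, so that a library is a pool of animals. In the 2 dilated libraries, eye drops of phenylephrine (5%, an alpha-adrenergic agonist) and cyclopentolate (1%, a muscarinic antagonist) were given each hour over 6.5 hours. In the 3 constricted libraries, pilocarpine (5%, a muscarinic agonist) was given on the same schedule, and the 3 untreated libraries received no drops. The dilated mice were kept in darkness and the constricted mice in light, so that drug and light cannot be told apart.

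The ciliary body is the ring of tissue between the iris root and the retina. It makes aqueous humor across a bilayer of epithelia, in which bicarbonate, chloride and sodium are moved by transporters and water follows, and it holds the ciliary muscle and a vascular stroma. Slc4a4 encodes an electrogenic sodium bicarbonate cotransporter, Rgs6 a regulator that shortens G protein signals, and Pld5 a member of the phospholipase D family. The study set the CB cluster apart from the ciliary body epithelium (CBE) and from the iris pigment epithelium (IPE), the dilator muscle, both sphincter muscle clusters, both stromal clusters, endothelial cells (EC) and leukocytes.

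The untreated libraries held 89, 163 and 94 CB nuclei, the constricted libraries 175, 88 and 47, and the dilated libraries 538 and 97. Summed CB UMIs ranged from 142803 in constricted replicate 3 to 1791764 in dilated replicate 1. The median CB nucleus had 3014 UMIs, with 5205.5 in constricted replicate 2 and between 2647 and 3608 in the other libraries. The median percent of mitochondrial UMIs in CB nuclei was 0.0656 and 0.0770 in the dilated libraries, 0.0349, 0.0357 and 0.0339 in the untreated libraries, and 0.0334, 0.0153 and 0.0355 in the constricted libraries. The dilated libraries lay above all the others in this measure, and its part in the results below was not tested. Dilated replicate 1 supplied more CB nuclei than any other library, and each library counts once in the tests. Levels are given as CPM, the UMIs of a gene scaled to a common total, from the UMIs summed over the CB nuclei of a library. The counts include intronic reads, so that long genes gather more UMIs and levels are compared between cell types, not between genes.

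Some cell barcodes recurred between libraries. In all, 26 of 28 pairs of libraries shared at least 1 barcode. Untreated replicate 1 and dilated replicate 1 shared 63, of which 21 were CB in both, constricted replicate 1 and dilated replicate 1 shared 18, of which 7 were CB, and untreated replicate 1 and constricted replicate 1 shared 14, of which 7 were CB. In 65 nuclei, at least 90% of the UMIs were also present, gene by gene, in the deeper nucleus of the same barcode. These 65 nuclei, called copies here, were found in untreated, constricted and dilated replicate 1, and 27 were CB nuclei. The CB copies were shallow, with 685 to 1439 UMIs, and held 0.755%, 1.08% and 0.955% of the CB UMIs of untreated, constricted and dilated replicate 1. Without them, 7 genes passed the test between dilated and untreated libraries in place of 5, the original 5 among them. The counts were 0 with and without copies for constricted against untreated libraries, and 7 with and without copies for dilated against constricted libraries, where 6 genes were in both sets.

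The summed levels of the 3 markers were higher in CB than in every other type in each untreated library. Slc4a4 was at 6338 ± 401 CPM in CB (mean ± SD, n = 3 untreated libraries) and at 714 ± 24.8 CPM in dilator muscle, the next highest type, a log2 ratio of 3.15. Pld5 was at 3974 ± 1064 CPM in CB and 1034 ± 131 CPM in dilator muscle, a log2 ratio of 1.94. Rgs6 was at 1750 ± 478 CPM in CB and 789 ± 102 CPM in CBE, a log2 ratio of 1.15. Rgs6 was therefore the marker with the smallest distance to its neighbour. These ratios carry no p-value because the clusters were made from the same counts.

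Slc4a4 and Pld5 were also found in most CB nuclei of each library, and Rgs6 in fewer. To compare nuclei of unequal depth, each nucleus was thinned at random to 1000 UMIs, which left out 30 of the 1291 CB nuclei and 28 leukocyte nuclei. A Slc4a4 UMI then remained in 95.9% to 98.9% of CB nuclei per library (98.9% to 100% unthinned), and a Pld5 UMI in 89.6% to 100% (96.3% to 100% unthinned). A Rgs6 UMI remained in 54.3% to 82.8% (80.9% to 96.6% unthinned). Leukocytes, which should lack these genes, gave thinned shares of 0% to 25.0% for Slc4a4, 2.86% to 16.7% for Pld5 and 0% to 4.84% for Rgs6, with 12 to 99 thinned leukocyte nuclei per library and a median depth of 1971 UMIs against 3014 UMIs in CB. Nearer types held more. Rgs6 was in 43.1% to 70.4% of thinned CBE nuclei, a range that overlaps that of CB, and dilator muscle gave 34.4% to 45.1% for Slc4a4 and 43.6% to 63.5% for Pld5. Of 1261 thinned CB nuclei, 61.0% held all 3 markers and 1 held none.

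**Figure D1:**
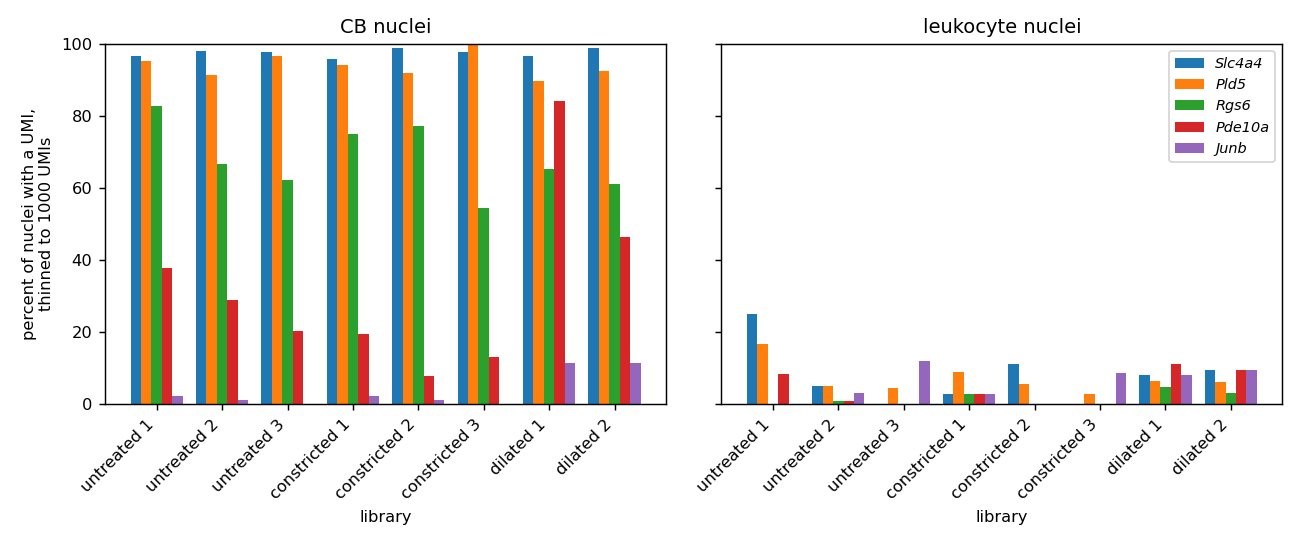
Percent of nuclei with at least 1 UMI of Slc4a4, Pld5, Rgs6, Pde10a or Junb after thinning to 1000 UMIs (y axis), by library (x axis), in CB nuclei on the left and leukocyte nuclei on the right. Bars for Slc4a4 and Pld5 stand near the top in each CB library, whereas the Pde10a bar changes with the treatment, from 7.96% in constricted replicate 2 to 84.3% in dilated replicate 1.

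Beyond the markers, 318 genes had at least 20 CPM in CB and lay above every other cell type in each of the 3 untreated libraries. Among named genes with the largest ratios were Cdh22, a cadherin (242 ± 63.5 CPM, log2 ratio 4.70), Anks1b, an ankyrin repeat adaptor (2212 ± 538 CPM, log2 ratio 4.68), Hes5, a transcriptional repressor downstream of Notch (48.9 ± 18.9 CPM, log2 ratio 4.16), and Serpina3n, a secreted protease inhibitor (66.6 ± 36.5 CPM, log2 ratio 3.70). Apba2, an adaptor of amyloid precursor protein (90.8 ± 36.6 CPM), Zfp385b (574 ± 109 CPM), Tmem27 (49.1 ± 7.59 CPM), Trim9 (804 ± 103 CPM) and Cacng4, an auxiliary subunit of AMPA receptors and calcium channels (987 ± 97.0 CPM), followed with log2 ratios of 3.26, 3.21, 3.19, 3.12 and 2.99. The predicted genes Gm34609 (690 ± 87.1 CPM against 5.22 ± 2.69 in CBE), Gm30275 (141 ± 52.3 CPM) and Gm43434 (177 ± 36.5 CPM) had log2 ratios of 6.80, 5.94 and 3.59. Gm34609 averaged at most 5.22 CPM in any other type. The log2 ratio of Serpina3n was 2.70 without untreated replicate 1 and 4.58 without untreated replicate 2, and that of Cdh22 was 5.42 and 4.05.

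The remaining genes of the top 25 covered signalling, lipid, keratin and transport functions. Sh3rf3 (log2 ratio 2.89), Ppp2r2b, a regulatory subunit of protein phosphatase 2A (2.88), Acsl6, an acyl-CoA synthetase (2.85), and Pde5a, the cGMP-specific phosphodiesterase (2.82), were followed by Krt18, a simple epithelial keratin (2.77), Galnt10 (2.69), Hpse2, an enzymatically inactive heparanase relative (2.66), Acnat1 (2.54), Slc38a8, an amino acid transporter (2.53), and Upk3bl (2.52). Gm48747 and Gm44202 had log2 ratios of 2.53 and 2.51. Without 1 untreated library the ratio ran from 1.82 to 3.09 for Acnat1 and from 1.97 to 2.95 for Hpse2, the lowest values being those without untreated replicate 2 and untreated replicate 3. Dilator muscle was the next highest type for 8 of the 25 genes, the largest number of any type.

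**Figure D2:**
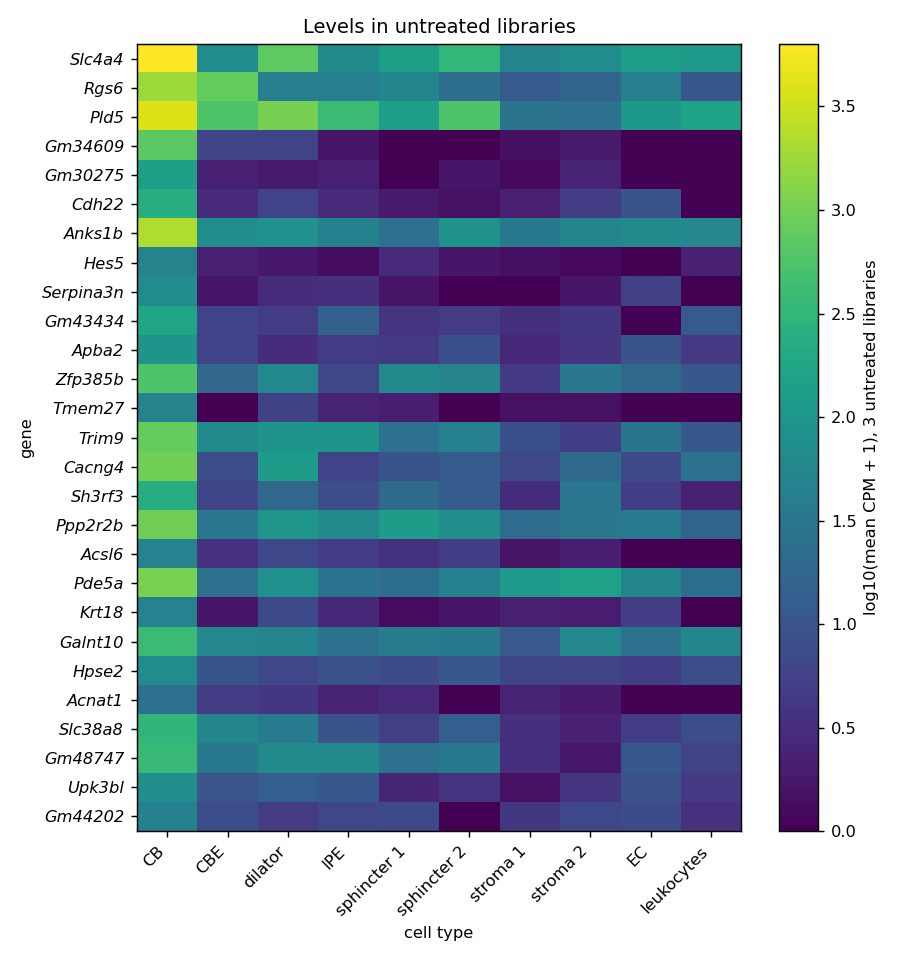
Mean level of the 3 markers and the 25 genes of highest ratio (rows) in each cell type (columns) of the 3 untreated libraries, as log10(CPM + 1) in color. The CB column is the brightest in every row, and Rgs6 and Pld5 also show color in CBE or dilator muscle.

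The CB nuclei were next compared with marker lists of the other tissues that the ciliary rim could hold. Genes of the contractile apparatus, which would mark ciliary, dilator or sphincter muscle, summed to 1099 CPM in CB, against 13698 CPM in dilator muscle, 14448 and 16336 CPM in the sphincter clusters, 1206 CPM in CBE and 1349 CPM in leukocytes. None of its 15 members was highest in CB. Mylk, the myosin light chain kinase, gave most of these UMIs (684 ± 54.8 CPM in CB, 8212 CPM in dilator muscle, 642 CPM in leukocytes), Myh11, the smooth muscle myosin heavy chain, was at 50.1 CPM in CB, and Acta2, smooth muscle actin, was at 52.1 CPM, against 128 and 79.9 CPM in leukocytes. The contractile genes in CB thus stood at the level found in leukocytes, and 1 member had no UMI in untreated CB nuclei. The fibroblast list of stroma 2 summed to 129 CPM in CB and 8833 CPM in stroma 2, with Tfap2b at 15.8 CPM against 2698 CPM. The melanocyte list of stroma 1 summed to 205 CPM in CB and 4389 CPM in stroma 1, with Sox10 at 1.93 CPM against 963 CPM. The sphincter list summed to 105 CPM in CB, the endothelial list to 39.0 CPM and the leukocyte list to 22.6 CPM, against 12524, 7674 and 5084 CPM in the types they mark.

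Genes of the pigmented epithelia and of the optic cup were present at higher levels. The 12 melanin genes summed to 9381 CPM in CB, below the 16868 CPM of IPE, the 14073 CPM of dilator muscle and the 39690 CPM of stroma 1, and above the 4681 CPM of CBE. Dct, a melanin enzyme, was at 4835 ± 1617 CPM, Trpm1, a cation channel of melanocytes, at 1377 ± 530 CPM, Oca2, a melanosomal transporter, at 853 ± 305 CPM, and Tyr, tyrosinase, at 623 ± 98.6 CPM. Pax6, a master regulator of eye development, was at 1998 ± 522 CPM in CB against 1691 CPM in IPE. Otx2, a homeobox factor, was at 433 ± 93.8 CPM in CB, 395 CPM in sphincter 2, 339 CPM in dilator muscle and 11.4 CPM in CBE. It was rare in IPE, where 0.388% to 2.08% of thinned nuclei per library held an Otx2 UMI. The thinned shares were 30.25% to 51.58% in CB and 25.75% to 40.62% in dilator muscle. Zic1 reversed this order, with 14.6 CPM in CB, 705 CPM in CBE and 764 CPM in IPE. The list of inner epithelium genes that includes Zic1 summed to 488 CPM in CB and 14698 CPM in CBE, and Cdh3, P-cadherin (267 ± 165 CPM, 78.3 CPM in dilator muscle), was its only member highest in CB. The nuclei carried the 3 markers of their label. The contractile, fibroblast and inner epithelium lists set the CB nuclei apart from the muscle, fibroblast and CBE clusters, in that order. The list of optic cup factors, at 4540 CPM in CB, did not set them apart from several clusters. It was at 4529 CPM in IPE, 4232 CPM in CBE, 4079 CPM in dilator muscle and 3799 CPM in sphincter 2.

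**Figure D3:**
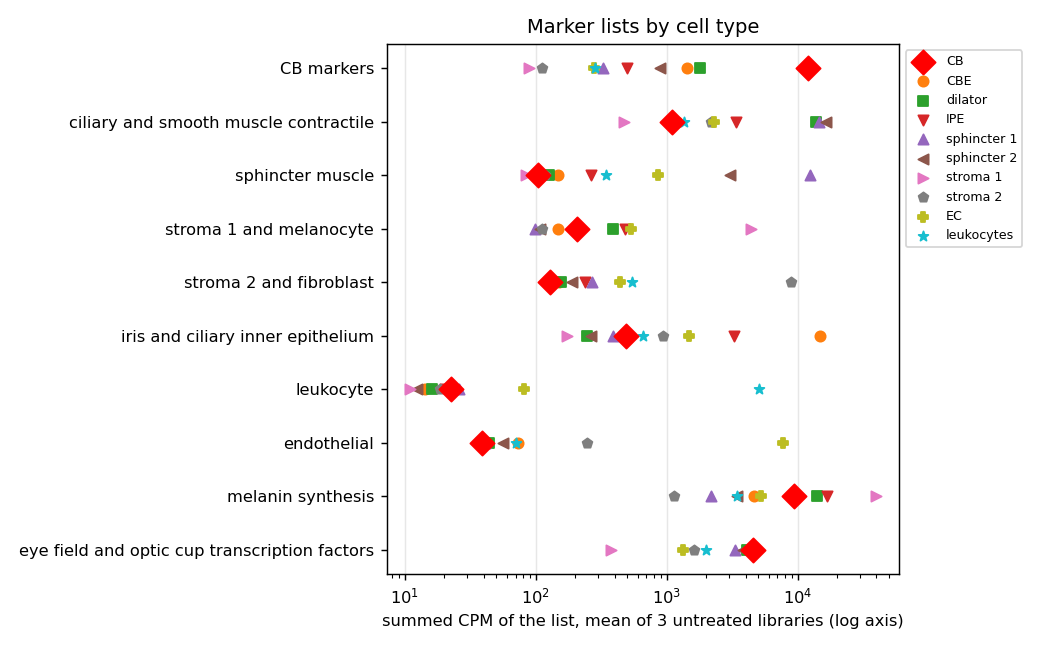
Summed CPM of 10 marker lists (y axis) in each cell type on a log axis (x axis), as means of 3 untreated libraries. The large diamonds are CB, which lies with the types that lack a marker for the muscle, stromal, endothelial and leukocyte lists, and near the epithelial and dilator clusters for melanin and optic cup genes.

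Several functional lists had a larger share of members highest in CB than the 8.73% of all 22873 genes, and they are not ranked here. The share was 21.7% for cyclic nucleotide phosphodiesterases, 20.7% for glutamate, GABA and glycine receptors and 25.0% for bicarbonate, chloride and potassium transport. The last list includes Slc4a4, a marker of the CB label. All lists were chosen with earlier results of these data known. The 22873 genes include 5492 without a UMI in untreated CB nuclei, so nothing is read from a share above 8.73%. Of its 28 genes, 7 were above every other type in each untreated library. Besides Slc4a4, they were Kcnq5, a voltage-gated potassium channel (4617 ± 1034 CPM, 1785 CPM in sphincter 1), Slc4a5, a second sodium bicarbonate cotransporter (1168 ± 59.8 CPM, 632 CPM in CBE), the calcium-activated channel genes Ano6 (441 ± 103 CPM, 334 CPM in dilator muscle) and Ano1 (127 ± 49.9 CPM, 25.2 CPM in stroma 1), Clic6 (108 ± 32.005 CPM, 69.9 CPM in CBE) and Slc26a7, an anion exchanger (62.8 CPM, 24.7 CPM in dilator muscle). In contrast, Best2, the bestrophin of the non-pigmented ciliary epithelium, was at 8.58 CPM in CB and 338 CPM in CBE.

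Gja1, the gap junction protein connexin 43, was at 1392 ± 40.7 CPM in CB and 1448 CPM in IPE. Of 29 genes for glutamate, GABA and glycine receptors, 3 lay above the other types in each library, as did 370 of all 22873 genes, among them Gria3 (673 ± 59.7 CPM) and Gabrb1 (200.3 ± 59.3 CPM). Of 26 calcium, potassium and sodium channel genes, Kcnip4 (8601 ± 605 CPM, 5105 CPM in dilator muscle), Kcnq5 and Cacng4 did so, the last pair of which is already described above. Among growth factor genes, Igfbp5, a binding protein of insulin-like growth factor, was at 1220 ± 116 CPM and its receptor gene Igf1r at 896 ± 176 CPM. Thsd4, a fibrillin-associated matrix protein, was at 914 ± 72.5 CPM in CB and 734 CPM in sphincter 1, Col4a4 at 130 ± 48.7 CPM (49.1 CPM in IPE), and Wnt5b, a Wnt ligand, at 318 ± 118 CPM. Cyp1b1, a cytochrome whose loss causes congenital glaucoma, was at 63.1 CPM in CB and at most 11.0 CPM in any other type. Receptors for the drugs were sparse. Adra1a, the alpha 1A receptor, was at 59.8 CPM in CB and 479 CPM in dilator muscle, and Chrm3, the M3 muscarinic receptor, at 20.0 CPM in CB and 3958 CPM in sphincter 1. None of the 13 measured adrenergic and muscarinic receptor genes reached 100 CPM in CB.

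Across all genes, the squared correlation of log10(1 + counts per 10000 UMIs) between CB and another type of the same untreated library was 0.767 ± 0.0103 for dilator muscle, 0.754 ± 0.00667 for IPE and 0.708 ± 0.0104 for CBE (SD, n = 3 libraries). It was 0.654 for sphincter 2, 0.602 for sphincter 1, 0.531 for stroma 2, 0.522 for stroma 1 and 0.402 for leukocytes. Dilator muscle was above IPE in each library (0.775 against 0.749, 0.769 against 0.761 and 0.755 against 0.751). These values are across genes, which are not replicates, and types with few nuclei have noisier sums.

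The share of CB nuclei differed widely between libraries of one treatment. It was 6.02% (95% Wilson interval 4.92% to 7.35%), 2.55% (2.19% to 2.97%) and 1.45% (1.18% to 1.77%) in the untreated libraries, 4.14% (3.58% to 4.78%), 6.91% (5.64% to 8.43%) and 1.36% (1.02% to 1.80%) in the constricted libraries, and 7.35% (6.77% to 7.97%) and 2.62% (2.15% to 3.18%) in the dilated libraries. Such intervals cover counting error only. The groups overlapped. The difference of the means was 1.64 percentage points between dilated and untreated libraries (exact permutation test, two-sided, p = 0.5), 0.795 between constricted and untreated libraries (p = 0.8) and 0.849 between dilated and constricted libraries (p = 0.7). The smallest p that these numbers of libraries allow is 0.1. The ratio of CBE to CB nuclei stayed between 0.709 and 1.45 in the 8 libraries, and the amount of ciliary tissue in each library was not measured.

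The response to dilation was tested on the UMIs summed over the CB nuclei of each library, with edgeR's quasi-likelihood test and Benjamini-Hochberg adjustment over 7522 genes. Genes counted as called when the adjusted p was under 0.05 and the log2 fold change was over 0.6 in size. After 6.5 hours of dilation, 5 genes rose and none fell, or 0.0665% of the genes tested. They were 3 immediate early transcription factors, Junb, Jun and Egr1, and 2 cyclic nucleotide phosphodiesterases, Pde10a and Pde3b. Immediate early genes are transcribed within minutes of a stimulus, and phosphodiesterases break down cAMP or cGMP. At an unadjusted p under 0.05 there were 393 genes. The number called ranged from 2 without untreated replicate 3, through 3 without untreated replicate 2 and 9 without constricted replicate 2, to 27 without untreated replicate 1. With 47 CB nuclei drawn from each library, Pde10a alone was called among 3725 genes tested. With the run of library numbers as a term, 42 genes were called. DESeq2 called 6 genes, none of them among the 5, and gave no adjusted p for Junb, Jun, Pde3b or Egr1. Between the 2 dilated and the 3 untreated libraries, 21.2% of the genes tested had values that did not overlap, so that a lack of overlap alone is common in these sums.

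Junb, a subunit of the AP-1 transcription factor, was at 23.1, 19.8 and 30.4 CPM in the untreated libraries and at 136 and 168 CPM in the dilated libraries. Its log2 fold change was 2.67 (SE 0.30, adjusted p = 0.000102). Jun, another AP-1 subunit, was at 20.2, 53.4 and 43.9 CPM in the untreated and 131 and 179 CPM in the dilated libraries, a log2 fold change of 1.92 (SE 0.32, adjusted p = 0.0111). Both genes lay above every untreated value in both dilated libraries. Junb had 8, 10 and 9 UMIs in the untreated and 244 and 49 in the dilated libraries. Egr1, a zinc finger factor, had 1, 0 and 0 UMIs in the untreated libraries and 63 and 8 UMIs in the dilated libraries, or 35.2 and 27.5 CPM. With so few UMIs its fitted log2 fold change of 4.92 (SE 0.92, adjusted p = 0.0343) depends on the prior count, and the ratio of the pooled UMIs was 39.1 with an exact 95% counting interval of 6.80 to 1567.

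Pde10a, which acts on cAMP and cGMP, was at 633, 558 and 527 CPM in the untreated libraries and at 3485 and 990.0 CPM in the dilated libraries. Its log2 fold change was 2.00 (SE 0.35, adjusted p = 0.0205). The dilated libraries were both higher than the untreated ones and lay far from each other. Without dilated replicate 1 the log2 fold change was 0.85 (adjusted p = 0.519), and without untreated replicate 2 or 3 the adjusted p was 0.177 and 0.161. Pde3b, a cAMP phosphodiesterase inhibited by cGMP, was at 17.3, 5.94 and 6.75 CPM in the untreated libraries and at 82.0 and 131 CPM in the dilated libraries, a log2 fold change of 3.38 (SE 0.46, adjusted p = 0.00101). Junb and Pde3b kept their call when any single library was left out. Jun lost it without dilated replicate 2 (adjusted p = 0.0638) or untreated replicate 3 (0.0524), and Egr1 without dilated replicate 2 (0.0622) or untreated replicate 3 (0.162). Egr1 did not pass the filter on low counts, and so was not tested, without untreated replicate 2, constricted replicate 1, constricted replicate 2 or dilated replicate 1. In the main fit, Junb, Pde3b and Egr1 passed that filter only through the dilated libraries, which limits what their calls show. Outside the dilated libraries Pde3b was at most 17.3 CPM and Egr1 at most 8.56 CPM. Where 1 dilated library remained, it was taken to vary like the other groups.

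**Figure D4:**
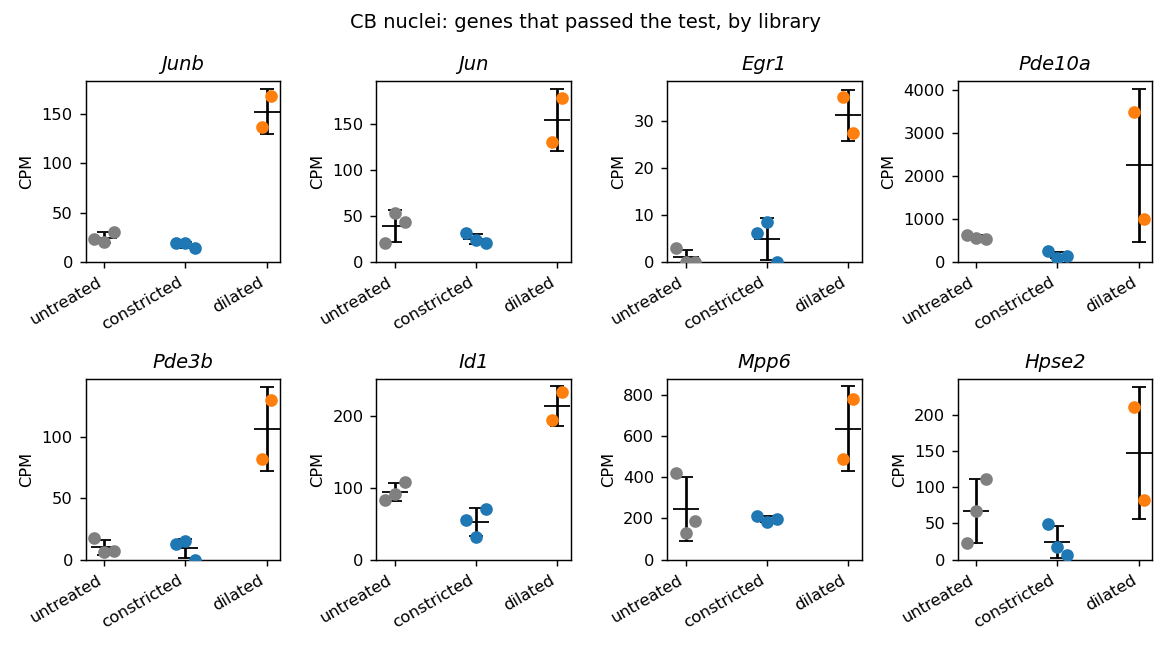
Level in CB nuclei (y axes, CPM) of the 8 genes called between dilated libraries and untreated or constricted libraries, by treatment (x axes); points are libraries, horizontal marks the mean and bars the SD. For Junb, Jun, Egr1, Pde10a, Pde3b, Id1 and Mpp6 both dilated points lie above all other points, which is not so for Hpse2. The dilated Pde10a points lie far apart at 3485 and 990.0 CPM.

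The libraries fall into runs by their number, 2 to 4 (replicate 1 of each treatment), 13 (constricted replicate 2) and 15 to 18 (the others). Which library belonged to which processing batch is not given in the sources used here. Within numbers 2 to 4, the dilated library exceeded the untreated one 5.89-fold for Junb, 6.46-fold for Jun, 4.73-fold for Pde3b and 5.51-fold for Pde10a. Within numbers 15 to 18, the dilated library exceeded the mean of the untreated ones 6.71-fold, 3.67-fold, 20.6-fold and 1.83-fold. The direction was the same in both runs for these 4 genes, and the sizes differed most for Pde3b and Pde10a.

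The other immediate early genes were mostly too sparse to test. Of 35 genes in that list 33 were measured, 9 passed the filter on low counts, and 3 of these rose, beside 0.0665% of all genes tested, with a median log2 fold change of 1.22 over the 9 against -0.01 over all 7522 genes. A gene that passes such a filter through the dilated libraries alone had to differ. Neither the share that rose nor the median therefore carries weight of its own. Btg2, an antiproliferative gene, was at 2.89, 3.96 and 3.38 CPM in the untreated libraries and 32.9 and 48.1 CPM in the dilated libraries, and missed the threshold. Fos, which did not pass the filter, had 2 UMIs in the untreated and 58 in the dilated libraries, a ratio of 15.98 with a counting interval of 4.23 to 135. Of 24 phosphodiesterase genes 23 were measured and 13 tested, 2 of which rose, beside the same 0.0665%, and the median log2 fold change was 0.02. Pde3b had 6, 3 and 2 UMIs in the untreated and 147 and 38 in the dilated libraries. The limit set by the filter thus applies to this share too, and nothing is read from it. The cAMP phosphodiesterase Pde4d had a log2 fold change of 0.07, Pde5a one of -0.06, Pde1c one of -0.01 and Pde7b one of 0.79, none of them called.

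No member of the other lists was called in CB. Of 15 genes of the CREB, CREM, CRTC and SIK list, 12 were tested, with a median log2 fold change of 0.21; Crem, a cAMP-responsive factor, had 0.93. The melanin list had a median of 0.38 over 10 genes, the glucocorticoid list 0.89 over 10, the circadian list 0.11 over 15 and the heat shock list 0.19 over 11. The 28 transport genes gave 15 tested with a median of 0.09, the growth factor list 0.03 over 16, the Wnt list -0.16 over 14, and the matrix list -0.00 over 19. The markers Slc4a4, Rgs6 and Pld5 had log2 fold changes of -0.14, -0.39 and 0.06. The summed levels of marker lists of other cell types were as follows in CB nuclei. The contractile list was at 1213, 1033 and 1050 CPM in the untreated libraries and 920 and 712 CPM in the dilated libraries, the sphincter list at 144, 71.3 and 97.9 against 68.6 and 58.4 CPM, both with the dilated libraries below the untreated ones, the pericyte list at 127, 131 and 64.1 against 63.6 and 75.6 CPM, and Adra1a, the dilator marker, at 75.1, 77.2 and 27.0 against 63.1 and 34.4 CPM. The leukocyte list was at 23.1, 27.7 and 16.9 CPM against 9.49 and 13.8 CPM. The stroma 1 list was at 257, 219.7 and 138 CPM in the untreated and 223 and 275 CPM in the dilated libraries, the stroma 2 list at 136, 113 and 138 against 131 and 182 CPM, the endothelial list at 72.2, 17.8 and 27.0 against 67.0 and 37.8 CPM, and the inner epithelium list at 739.5, 368 and 358 against 737 and 406 CPM, with overlap between the groups in each. The lens list was at 2.89, 13.8 and 0 against 36.8 and 10.3 CPM. The part of these lists in the genes called was not tested.

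Some of these genes also rose in other cell types by the same test within each type. Junb rose in IPE (log2 fold change 1.67, adjusted p = 0.0182), dilator muscle (3.98, adjusted p = 0.000555), sphincter 1 (2.33, adjusted p = 0.00194) and sphincter 2 (2.38, adjusted p = 0.00172), and its 0.90 in CBE missed the threshold (adjusted p = 0.781). In the dilated libraries Junb was at 104 and 486 CPM in dilator muscle, 248 and 290 CPM in IPE and 130 and 98.6 CPM in CBE, beside the 136 and 168 CPM of CB. Jun rose in IPE, dilator muscle, sphincter 1 and stroma 1, with log2 fold changes of 2.71, 2.63, 2.25 and 2.13. Pde3b rose in IPE, dilator muscle, sphincter 1, sphincter 2 and leukocytes, with 3.37, 3.38, 2.96, 1.66 and 1.73, and Pde10a in IPE, dilator muscle, both sphincter clusters and both stromal clusters. Egr1 rose in dilator muscle (5.65), where it was at 83.9 and 255 CPM in the dilated libraries. Pde3b was highest in leukocytes, at 232, 424 and 433 CPM in the untreated and 1194 and 1347 CPM in the dilated libraries, and at 60.1 and 102 CPM in dilator muscle and 9.59 and 17.2 CPM in CBE of the dilated libraries. The part of RNA from other nuclei in the CB values was not tested.

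Promoters of the genes that rose together are shown because their levels moved in the same libraries. Of 8 genes called in either dilation comparison, 5 had an entry in the RefSeq promoter table for mouse build GRCm38.p6, with 7 start sites. Each entry runs from 250 bases before to 50 bases after a transcription start and is printed 5′ to 3′ on the strand of the gene. The letters searched on both strands were the cAMP response element TGACGTCA, the same element with any base after its TGAC (TGACNTCA, which includes the former), its half-site TGACG (which the full element also contains), the AP-1 site TGANTCA and the CArG box. This looser element was added after the sequences had been read. Capitals mark the matches.

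Junb, chr8:84978699-84978998, minus strand: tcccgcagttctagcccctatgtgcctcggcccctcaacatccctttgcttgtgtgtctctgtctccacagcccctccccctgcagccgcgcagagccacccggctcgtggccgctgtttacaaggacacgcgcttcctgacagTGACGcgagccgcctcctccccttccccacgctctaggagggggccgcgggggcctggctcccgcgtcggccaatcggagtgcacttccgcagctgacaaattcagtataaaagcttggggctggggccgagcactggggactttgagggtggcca
Jun, chr4:95052173-95052472, minus strand: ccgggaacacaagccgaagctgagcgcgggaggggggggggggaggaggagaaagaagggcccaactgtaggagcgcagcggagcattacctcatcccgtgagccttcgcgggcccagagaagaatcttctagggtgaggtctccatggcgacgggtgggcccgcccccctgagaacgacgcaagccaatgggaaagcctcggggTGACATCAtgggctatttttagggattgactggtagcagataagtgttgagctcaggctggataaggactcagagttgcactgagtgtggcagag
Pde10a, second start, chr17:8849735-8850034, plus strand: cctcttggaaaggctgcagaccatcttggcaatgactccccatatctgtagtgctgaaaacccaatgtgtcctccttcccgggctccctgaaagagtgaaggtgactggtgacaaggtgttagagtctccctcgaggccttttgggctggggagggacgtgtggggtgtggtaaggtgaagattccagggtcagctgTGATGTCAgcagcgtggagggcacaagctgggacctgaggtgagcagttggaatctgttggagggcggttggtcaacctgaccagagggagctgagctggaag

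Junb held the half-site TGACG, starting 106 bases before the transcription start, and 20.8% of 32851 promoters of this length in the table held that half-site. Jun held TGACATCA, starting 45 bases before its start. The second start of Pde10a held TGATGTCA, the same letters read on the other strand, starting 53 bases before its start. The looser element was in 8.83% of all promoters, the full cAMP response element in 1.79%, the AP-1 site in 7.81% and the CArG box in 1.63%. No other match was found in the 7 promoters, which included the first start of Pde10a (chr17:8801495-8801794), and the other matched genes were Mpp6 and Hpse2. A match is a description of letters and not of a bound site.

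In the fit over the 3 conditions, no gene passed the threshold between constricted and untreated CB nuclei. With edgeR, 0 of 7522 genes were called between constricted and untreated libraries, 386 had an unadjusted p under 0.05, DESeq2 called 1 gene and limma-voom 0. With the run of library numbers as a term, 5 genes were called, 3 higher and 2 lower in constricted libraries. The groups did not overlap for 10.2% of the genes. The 5 genes of smallest p, none of which passed, were Pde10a, Wdr17, Hes5, Plcl1 and Gm30275, each with an adjusted p of 0.220. Pde10a was at 244, 96.3 and 133 CPM in the constricted libraries, all below the 527 to 633 CPM of the untreated libraries, a log2 fold change of -1.82 (SE 0.36). It stood thus on the other side of the untreated level from the dilated libraries. Wdr17 was at 1099, 1314 and 1302 CPM in the constricted and 499.7, 722 and 685 CPM in the untreated libraries, a log2 fold change of 0.96 (SE 0.20). Plcl1, a phospholipase C-like protein without catalytic activity, was at 337, 317 and 721 CPM against 202, 186 and 182 CPM, a log2 fold change of 1.20 (SE 0.26). Without dilated replicate 1 or dilated replicate 2, which enter the shared estimate of the spread, 1 gene was called. Hes5 and Gm30275 had log2 fold changes of -2.65 (SE 0.57) and -1.54 (SE 0.34). Both had been chosen above for high values in these untreated libraries, a choice that favours lower values in the constricted ones. No list had a called member. Medians above the -0.01 of all genes included 0.32 over 16 calcium and potassium channel genes, 0.46 over 4 neural crest genes, 0.33 over 7 retinoid genes and 0.30 over 11 heat shock genes. Medians below it included -0.30 over 9 immediate early genes, -0.20 over 14 Wnt genes and -0.20 over 13 phosphodiesterase genes.

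Between dilated and constricted libraries 7 genes rose and none fell, or 0.0931% of the genes tested, and 18.1% of the genes had values that did not overlap. This comparison uses the same dilated libraries as the first. The number called was 21 without untreated replicate 1 and 11 without either untreated replicate 3 or dilated replicate 1. Pde10a had a log2 fold change of 3.82 (SE 0.39, adjusted p = 1.25e-05), from a range of 96.3 to 244 CPM to 3485 and 990.0 CPM, and without dilated replicate 1 the log2 fold change was 2.67. Pde3b had 3.102 (SE 0.45, adjusted p = 0.00114), Junb 3.04 (SE 0.32, adjusted p = 1.58e-05) and Jun 2.52 (SE 0.35, adjusted p = 0.000513). The limit set by the filter on low counts applies to Pde3b and Junb here too. Id1, an inhibitor of basic helix-loop-helix factors, was at 55.9, 32.1 and 70.0 CPM in the constricted and 194 and 234 CPM in the dilated libraries, a log2 fold change of 2.14 (SE 0.29, adjusted p = 0.000465). Against the untreated libraries, at 83.8, 91.0 and 108 CPM, its log2 fold change of 1.20 missed the threshold (adjusted p = 0.0858). Mpp6, a membrane scaffold protein, had a log2 fold change of 1.70 (SE 0.33, adjusted p = 0.0468) and Hpse2 one of 2.46 (SE 0.48, adjusted p = 0.0468). Hpse2 was at 23.1, 67.3 and 111 CPM in the untreated libraries, a range that included the 82.5 CPM of dilated replicate 2. Without dilated replicate 1 its log2 fold change was 1.54 (adjusted p = 0.621), without constricted replicate 1 it was 3.46, and it also lost its call without constricted replicate 2 (0.774), constricted replicate 3 (0.1004) or untreated replicate 2 (0.0872). Mpp6 lost its call without any one of the constricted libraries (adjusted p = 0.189, 0.610 and 0.1004) or without dilated replicate 2 (0.368). The other 5 genes kept their call when any single library was left out.

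Pde10a was followed in all cell types because it marks CB at rest and changes with dilation. In untreated libraries it was at 572 ± 54.5 CPM in CB, 240 ± 125 CPM in CBE, 154 CPM in stroma 1, 35.9 CPM in stroma 2 and at most 31.0 CPM in any other type. CB was above CBE in each untreated library. In the dilated libraries it was at 3485 and 990.0 CPM in CB, 1305 and 1338 CPM in dilator muscle, 1113 and 313 CPM in CBE, 774 and 540.2 CPM in stroma 1 and 393 and 392 CPM in sphincter 2. CB was therefore above dilator muscle in dilated replicate 1 and below it in dilated replicate 2. In CBE, too, dilated replicate 1 was the higher library. In the constricted libraries Pde10a was lower than at rest in CB and CBE by means, and at 176, 645 and 167 CPM in stroma 2, above its 33.4 to 40.3 CPM at rest.

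Per nucleus, a Pde10a UMI was found after thinning in 37.9% (Wilson interval 28.5% to 48.4%), 29.0% (22.6% to 36.4%) and 20.4% (13.5% to 29.7%) of untreated CB nuclei, in 84.3% (80.9% to 87.1%) and 46.3% (36.6% to 56.3%) of dilated CB nuclei, and in 19.5% (14.3% to 26.2%), 7.96% (3.91% to 15.5%) and 13.04% (6.12% to 25.7%) of constricted CB nuclei. Unthinned shares were 66.3%, 47.2% and 35.1%, then 93.5% and 74.2%, then 33.1%, 21.6% and 23.4%. Leukocytes of the same libraries gave thinned shares of 0% to 11.3%. In dilated replicate 1 the median CB nucleus held 8 Pde10a UMIs with an interquartile range of 4 to 15, and 43.5% held 10 or more, against 7.22% in dilated replicate 2 and 3.68% to 5.62% in the untreated libraries. The rise in dilated replicate 1 was thus spread over most CB nuclei.

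**Figure D5:**
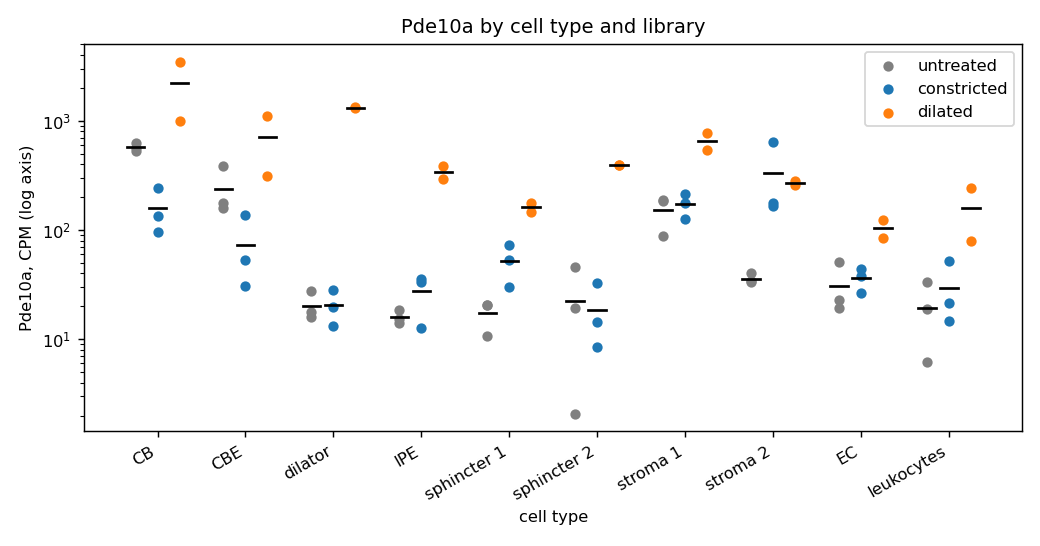
Level of Pde10a (y axis, CPM on a log axis) in each cell type (x axis), with a point for each library and a bar for the mean of each treatment. CB is the highest type at rest, and in dilated libraries the dilator points join the CB points above 900 CPM.

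The effect of dilation in CB was then set against that in neighbouring types, in a joint edgeR fit with a term for each library. A difference from this fit need not equal that between the log2 fold changes fitted in each type alone. Against CBE, 0 of 9030 genes differed (0%), with 428 at an unadjusted p under 0.05, a smallest adjusted p of 0.0627 and 0 calls by DESeq2. Leaving out untreated replicate 1, constricted replicate 1, constricted replicate 2 or untreated replicate 3 gave 8, 5, 6 and 2 calls. The log2 fold change in CB minus that in CBE was 1.73 for Junb (SE 0.40, adjusted p = 0.121) and 0.28 for Pde10a (SE 0.24, adjusted p = 1). It was 1.54 for Pde3b, 3.61 for Egr1 and, in the other direction, -1.20 for Jun. None of these differences passed the threshold. With 1 library left out, the difference ran from 1.06 to 2.19 for Junb, from 1.13 to 1.99 for Pde3b, from 2.52 to 5.60 for Egr1 and from -2.02 to -0.38 for Jun. Against dilator muscle, 422 of 13780 genes differed, or 3.06%, of which 219 (1.59%) had a larger and 203 (1.47%) a smaller log2 fold change in CB. The number was 228 without dilated replicate 1, 271 without untreated replicate 2 and 144 by DESeq2. Of 375 such genes tested in both types, 313 had the smaller absolute change in CB. Dilator muscle holds more nuclei than CB, and the part of this in the counts was not tested.

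Of the 5 genes that rose in CB, Pde10a was the only one called for a difference between the types. The lack of a call does not show that the others changed alike. Its log2 fold change was 2.00 in CB, from 572 to 2237 CPM, and 6.30 in dilator muscle, from 20.3 to 1322 CPM, a difference of -4.44 (SE 0.26, adjusted p = 1.57e-30). The difference in the joint fit was -0.55 for Junb (adjusted p = 0.684), -0.55 for Jun (0.508), 0.39 for Pde3b (0.861) and 0.70 for Egr1 (0.913), with none past the threshold. For Egr1 the fits of each type alone pointed the other way, with log2 fold changes of 4.92 in CB and 5.65 in dilator muscle. The direction for Egr1 is therefore not settled. Several genes that stood out in CB at rest were also among the 422, and none of them was called in CB. Anks1b was at 2212 CPM in untreated and 1610 CPM in dilated CB nuclei, and at 81.7 and 534 CPM in dilator muscle (difference -3.31, SE 0.20, adjusted p = 3.87e-29). Serpina3n was at 66.6 and 137 CPM in CB and at 2.03 and 51.4 CPM in dilator muscle (difference -3.72, SE 0.41, adjusted p = 6.13e-12), and Krt18 at 47.9 and 53.2 CPM in CB and at 6.18 and 38.0 CPM in dilator muscle (difference -2.28, SE 0.39, adjusted p = 1.43e-05). Gm34609, Sh3rf3, Upk3bl and Gm43434 also had smaller log2 fold changes in CB, with differences of -1.20, -1.54, -1.94 and -2.02, so that 7 of the 25 genes of highest CB ratio were among the 422, beside the 3.06% of all genes tested. The 25 genes were chosen for high values in the untreated CB libraries that also enter this fit, a choice that favours smaller log2 fold changes in CB, and nothing is read from the count.

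Members of the fixed lists differed in both directions. Col4a1 and Col4a2, the chains of basement membrane collagen, had differences of -2.81 and -2.82, with log2 fold changes of 0.71 and -0.05 in CB and 3.68 and 2.73 in dilator muscle. Fkbp5, a glucocorticoid-induced chaperone, had -1.85, Sik1, a cAMP-induced kinase, -2.31, and Bmp2 -1.95. In the other direction, Tyr had a difference of 1.52 (adjusted p = 1.19e-07), at 623 and 434 CPM in CB and 1214 and 276 CPM in dilator muscle, and Car14, a carbonic anhydrase, had 2.24. Tef, a clock output gene, had a difference of 2.02. Chrm2, the M2 muscarinic receptor, had 1.52, and Gja1 had 0.84. None of these genes was called in CB by itself.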

How the data were processed

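Nuclei of 8 iris libraries were sequenced on a droplet platform (10x Genomics). Per the labels and the study's methods, the authors aligned reads with Cell Ranger 3.1.0, kept nuclei by limits on transcripts and mitochondrial share, and clustered and named them with Seurat. The values used are the deposited counts of UMIs per gene and nucleus, not normalized, with the authors' cell type, and the percent of mitochondrial UMIs deposited for each nucleus. The deposited UMI number equalled the matrix sum for 31650 of 34357 nuclei, and the matrix was used.

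UMIs were summed over CB nuclei per library with Python 3.11.15, numpy 2.4.6, scipy 1.17.1 and pandas 2.3.3. Tests were run in R 4.3.3 with edgeR 4.0.16 (quasi-likelihood, TMM factors, all 3 conditions in 1 fit, low counts removed, Benjamini-Hochberg adjustment), with DESeq2 1.42.0 and limma 3.58.1 (voom) as alternatives, and were tested on simulated data. A joint fit of CB and another type, with a term for each library, tested whether the dilation effect differed. Scrublet, run in scanpy 1.11.5, called 14 CB nuclei doublets, which were kept. Nothing in the labels pairs libraries or names separate animals beyond the pools, so p-values measure the spread between libraries. Named genes were the 3 markers, the 25 genes of highest ratio to the next type, the called genes, the 5 of smallest p where none was called, and list members. The cell type, gene lists and tests were chosen with earlier results of these data known. Figures were drawn with matplotlib 3.10.9. Results for some genes are not reported here.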

Additional observations from a re-analysis of the deposited data

Results flagged for a closer look

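The dilation effect differed between CB nuclei and dilator muscle nuclei for 422 of 13780 genes in the joint edgeR quasi-likelihood fit with Benjamini-Hochberg adjustment, which is why these results stand here. Among the 10 largest differences, as the log2 fold change in CB minus that in dilator muscle, were 8.47 for Aanat, 7.79 for Gm49267 and 3.65 for Gm13052, whose log2 fold change was higher in CB. The differences were -7.21 for Shc2, -5.95 for C1ql3, -4.80 for Gm20758, -4.44 for Pde10a, -4.15 for Tnc, -3.85 for Them7 and -3.72 for Serpina3n, whose log2 fold change was lower in CB. Aanat and Gm49267 had 0 UMIs in untreated and Shc2 in dilated CB nuclei, so that these 3 fitted differences depend on the prior count and are no bound. Without dilated replicate 1, the difference was 1.90 for Gm13052 (adjusted p = 0.785), -3.80 for C1ql3 (0.342), -7.68 for Gm20758 (0.504), -3.35 for Tnc (0.127) and -2.62 for Them7 (0.503), and Gm49267 and Shc2 also lost their calls. Aanat was not tested without that library. Without dilated replicate 2, C1ql3 had -9.50. Leaving out untreated replicate 1, 2 or 3 ended further calls among Aanat, Gm49267, Shc2, C1ql3 and Gm20758, and without dilated replicate 2 Aanat and Shc2 lost theirs. Serpina3n and Pde10a kept their calls when any single library was left out, with Pde10a at -5.49 without dilated replicate 1 and -3.48 without dilated replicate 2. Gm20758 and C1ql3 were also sparse in CB, at 0.279 and 1.72 CPM in the dilated libraries.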

How the results depend on the processing

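Deviations from the group means correlated at 0.119, 0.137 and 0.252 among the 3 libraries of replicate 1, and at -0.0238 to 0.0797 among the other same-numbered pairs, so that the replicate number was not taken to pair libraries throughout. Pairs within a run of library numbers correlated at 0.0537 to 0.252. With the replicate block, 21 genes were called for dilated against untreated, 1 for constricted against untreated and 17 for dilated against constricted libraries, in place of 5, 0 and 7. In that order, no filter on low counts gave 49, 15 and 46, only the libraries of both conditions compared 13, 1 and 16, the library-number series as a term 42, 5 and 6, limma-voom 14, 0 and 4, DESeq2 6, 1 and 6, and equal numbers of CB nuclei 1, 1 and 9. Leaving out 1 library gave 2 to 27, 0 to 1 and 5 to 21 calls. Removal of copied nuclei was chosen after seeing the data. For the dilation effect against CBE, no filter gave 3 and leaving out 1 library 0 to 8 calls, and against dilator muscle DESeq2 gave 144 and leaving out 1 library 228 to 485.

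With 1 library left out, the difference in CB share ran from -0.721 to 4.01 percentage points for dilated against untreated (-0.721 without dilated replicate 1), from -0.591 to 2.18 for constricted against untreated (-0.591 without constricted replicate 2, -0.150 without untreated replicate 3) and from -1.52 to 3.22 for dilated against constricted libraries (-1.52 without dilated replicate 1, -0.538 without constricted replicate 3). With 1 library left out, the joint difference ran from -0.026 to 0.51 for Pde10a against CBE, and against dilator muscle from -1.75 to 0.32 for Junb and from -0.79 to 4.15 for Egr1 (negative without untreated replicate 1 for Pde10a and without dilated replicate 1 for Egr1, positive without dilated replicate 2 for Junb). The Rgs6 log2 ratio was 0.74 over all 8 libraries, and the squared correlation with dilator muscle 0.987 without the log transform and 0.668 over genes with at least 0.1 counts per 10000. Of 192 identity ratios of single genes under an alternative, 38 moved by more than the spread between libraries, most with 10 CPM added or over all 8 libraries. The cause of these shifts was not tested. Of 293 single-gene fold changes under an alternative, 249 kept direction and side of the threshold, 30 fell below it and 14 passed it.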

Other observations

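Some genes lay lower in both treated groups than in the untreated libraries without passing the threshold, and were chosen after their values were seen. Hes5, a repressor downstream of Notch, was at 54.9, 27.7 and 64.1 CPM in the untreated, 4.14, 10.7 and 7.003 CPM in the constricted and 7.26 and 3.44 CPM in the dilated libraries. Heyl, another such repressor, was at 26.0, 55.4 and 23.6 CPM, then 6.21, 6.42 and 0 CPM, then 5.58 and 10.3 CPM. Gm30275 was at 188, 150.4 and 84.4 CPM, then 31.1, 72.8 and 35.0 CPM, then 48.6 and 68.8 CPM, and Gm43434 at 211, 182 and 138 CPM, then 70.4, 101 and 70.0 CPM, then 70.9 and 65.3 CPM. Both comparisons use the same untreated libraries. Hes5, Gm30275 and Gm43434 are also among the 25 genes chosen for high values in those libraries. That choice favours lower values in the treated groups, and nothing is read from the pattern.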
